A study of Mus musculus with 2 samples.

Results

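Mir140 and Mir455 are mouse microRNA genes known from cartilage, and both were measured here in whole embryonic lung. They were taken by symbol from the GENCODE annotation, as the microRNA genes inside Wwp2 and Col27a1, and they are 2 of 1973 microRNA genes in the count tables. Small RNA with inserts below 30 nt was sequenced from lungs of healthy embryos of strain B6NCrl at embryonic day 15.5, and the labels name no mutation or treatment. The 1 group had 2 libraries. Replicate 1 was a pool of 78 embryos and replicate 2 a pool of 62 embryos, each of both sexes. The labels give both pools 1 donor identifier and the same strain. Sources of difference between the libraries, such as the pooled embryos, the dissection or the preparation of the library, were not tested. The labels do not say whether trachea or main bronchi, where the airway cartilage lies, were kept with the lung. The design holds no comparison between conditions, and it allows levels, their spread and the relation of the genes to each other to be described.

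A microRNA is cut from a hairpin in a longer transcript. One strand of the hairpin stem, the 5p or the 3p arm, is loaded into an Argonaute protein and pairs with target messages through its seed, bases 2 to 8. In mouse cartilage the transcription factor SOX9 drives the Wwp2 and Mir140 locus, and mice without Mir140 have short long bones and altered skulls. Col27a1, the host of Mir455, encodes a fibrillar collagen of cartilage, and Mir455 has likewise been tied to SOX9 and to chondrocytes. In the airway wall, Sox9-positive mesenchyme forms the cartilage rings of the trachea and bronchi.

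The seeds decide which messages the products can pair with, so the mature sequences are shown with the seed in capitals. RefSeq, on GRCm38.p6, held 3 mature products for these genes, and miR-140-5p is named only.
miR-140-3p: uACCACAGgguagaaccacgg
miR-455-5p: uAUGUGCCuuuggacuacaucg
miR-455-3p: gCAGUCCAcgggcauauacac
The 3 seeds were all different, so Mir140 and Mir455 belonged to no common seed family by these products. Among 1738 mature sequences in the table, 2 carried the seed of miR-140-3p, 2 that of miR-455-5p and 1 that of miR-455-3p. The other carrier of the miR-140-3p seed was miR-497b, and the other carrier of the miR-455-5p seed was miR-5129-3p.
miR-497b: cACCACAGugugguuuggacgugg
miR-5129-3p: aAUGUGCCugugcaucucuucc
Beyond the seed these sequences differ from those of Mir140 and Mir455. Mir497b had 2 counts in replicate 1 and 0 in replicate 2, against 17813 and 21831 for Mir140. Mir5129 had 7 and 3 counts in replicates 1 and 2, against 13360 and 14913 for Mir455. Nearly all counted reads of precursors with the miR-140-3p or miR-455-5p seed therefore came from Mir140 or Mir455, although the counts do not separate the arms of a precursor.

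The annotated precursor of Mir140 (ENSMUSG00000065439.1) lies at chr8:107551244-107551313 of mm10, plus strand, and is 70 nt long. Its hairpin is shown because both of its arms are counted together, with miR-140-3p, bases 45 to 65, in capitals.
Mir140 hairpin: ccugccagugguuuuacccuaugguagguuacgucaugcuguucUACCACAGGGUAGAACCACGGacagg
The predicted fold of this hairpin had a minimum free energy of -39.1 kcal/mol and 60 paired bases, and 20 of the 21 bases of miR-140-3p were paired in it. Mir140 lies on the strand of Wwp2, an E3 ubiquitin ligase gene, in intron 16 of the longest coding transcript, which has 24 exons. That intron is 2141 bp long, with 1108 bp before the precursor and 963 bp after it. The precursor starts 114879 bp from the first base of Wwp2, or 94.0% of the way along the gene. Of 11 annotated Wwp2 transcripts, 4 span Mir140, and 1 of these, a retained-intron transcript, has an exon over it. Fragments of that exon cannot be told apart from microRNA reads in the counts.

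Mir455 (ENSMUSG00000070102.1) lies at chr4:63256851-63256932 of mm10, plus strand, and its precursor is 82 nt long. miR-455-5p occupies bases 17 to 38 and miR-455-3p bases 54 to 74, with 15 bases between them. The precursor lies in intron 10 of the longest coding transcript of Col27a1, which has 61 exons, and that intron is 2318 bp long. It ends 127 bp before the next exon, whereas 2109 bp separate it from the exon before. It starts 42847 bp into Col27a1, or 35.4% of the way along the gene, and no annotated exon of the host overlaps it. No other microRNA gene of the tables lies within 50000 bp of Mir140 or of Mir455, so neither is part of a microRNA cluster by that distance.

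Reads that map to several places are left out of the counts, which lowers genes with near copies. Neither gene was open to that within the annotated precursors. The longest stretch that Mir140 shared with any of 1893 other precursors, on either strand, was 11 nt, and the longest for Mir455 was also 11 nt. Copies elsewhere in the genome were not searched here. Reads on the strand opposite to Mir140 and Mir455 were 0 in both libraries, which allows up to 0.560 CPM in replicate 1 and 0.462 CPM in replicate 2, the value of 3 counts. CPM is counts per 1000000 counts on annotated strands of microRNA genes. Intervals and floors cover counting error only, as no molecular identifiers are recorded. A read here spans 1 mature product, so CPM was not divided by length.

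Mir140 had 17813 counts in replicate 1 and 21831 in replicate 2, of 5354530 and 6489390 counts in all. Its level was 3327 CPM (95% exact binomial interval 3278 to 3376) in replicate 1 and 3364 CPM (3320 to 3409) in replicate 2. The intervals overlap, and the mean was 3345 ± 26.4 CPM (SD, n = 2), or 0.3327% and 0.3364% of the counts. Mir140 was thus measured at nearly the same level in both pools.

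Mir455 had 13360 counts in replicate 1 and 14913 in replicate 2. Its level was 2495 CPM (2453 to 2538) in replicate 1 and 2298 CPM (2261 to 2335) in replicate 2. These intervals do not overlap, replicate 1 being higher, and the mean was 2397 ± 139 CPM (SD, n = 2), or 0.250% and 0.230% of the counts. In bulk lung, fewer cells of a type and less RNA per cell cannot be told apart. Together Mir140 and Mir455 made up 0.574% of the counts.

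Both genes were detected, which means 10 counts or more in each library, as were 18.1% of all genes in the tables (357 of 1973). Mir140 ranked 54 of the 357 detected genes by mean level and Mir455 ranked 61. Mir140 exceeded 84.9% and Mir455 82.9% of the detected genes. Their mean levels were 27.2-fold (Mir140) and 19.5-fold (Mir455) above the median detected gene, which stood at 123 CPM. The most abundant gene of the libraries reached 79294 CPM, so the pair sits on the upper shoulder of the distribution and not among its extremes.

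**Figure D1:**
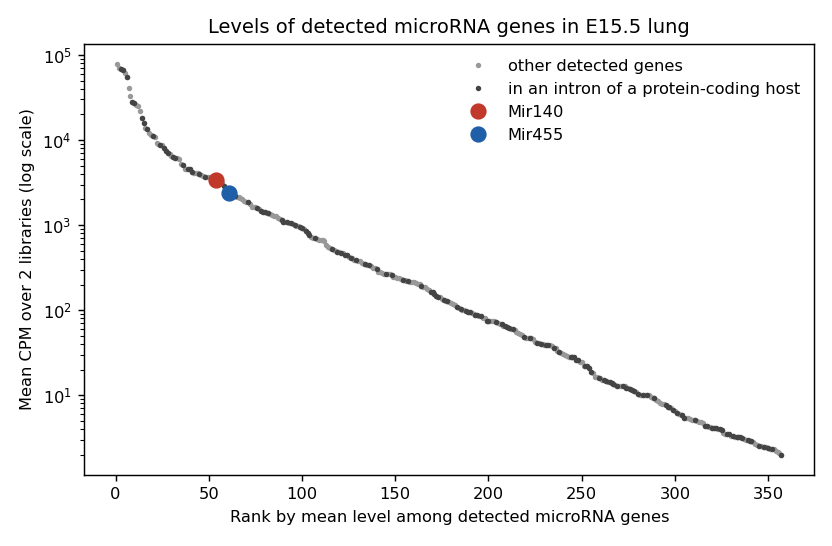
Mean CPM over the 2 libraries (log scale) against rank for the 357 detected microRNA genes, with genes in introns of protein-coding hosts in dark grey. Mir140 (red, rank 54) and Mir455 (blue, rank 61) lie close together on the upper part of the curve.

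Mir140 and Mir455 share their position inside protein-coding hosts, and they stood high among genes of that kind, much as they did among all detected genes. Of 702 tabulated microRNA genes in an intron of a protein-coding host on their strand, 148 were detected (21.1%). Mir140 ranked 23 and Mir455 ranked 28 of these 148. Mir140 was 36.6-fold and Mir455 26.2-fold above the intronic median of 91.3 CPM, which is lower than the median of 123 CPM for all detected genes. The host messages Wwp2 and Col27a1 are not in these tables, so the levels of host and microRNA were not compared.

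Mir140 was higher than Mir455 in both libraries. The ratio of Mir140 to Mir455 within a library was 1.33 (95% exact binomial interval 1.30 to 1.36) in replicate 1 and 1.46 (1.43 to 1.49) in replicate 2. On the log2 scale the ratio was 0.48 ± 0.095 (SD, n = 2), a 1.40-fold difference. That difference was larger than the spread between the replicates. An exact 2-sided permutation test of the log2 CPM values gave p = 0.33, the smallest that 2 values against 2 allow, so no threshold of 0.05 could be passed. That test treats the genes as unpaired, and p was 0.50 by exact 2-sided sign flips of the ratio in each library, a test added after seeing the data, again the smallest possible. The intervals of the ratios do not overlap, so the ratio itself differed between the pools by more than counting error. A bias of library preparation between the 2 sequences, if shared by both libraries, would not show in these errors.

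The genes most like each member were taken as the 3 with the smallest root mean square difference in log2 CPM over the 2 libraries. For Mir140 these were Mir183 (0.032), Mir431 (0.044) and Mir18 (0.084), none of them inside a protein-coding host on its strand. Mir140, at 3327 and 3364 CPM, lay below Mir183, a microRNA of sensory cells, at 3426 and 3405 CPM in replicates 1 and 2. It also lay below Mir18, of the Mir17 cluster, at 3464 and 3612 CPM, and above Mir431, of an imprinted cluster on chromosome 12, at 3270 and 3234 CPM. In each of these pairs the values of the 2 genes did not overlap. Further down the order, Mir181d at rank 56 spread from 3034 to 3422 CPM and overlapped Mir140.

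For Mir455 the nearest were Mir149 (0.029), Mir361 (0.065) and Mir27b (0.113), all in introns of annotated protein-coding hosts. The same holds for 148 of the 357 detected genes. Mir455, at 2495 and 2298 CPM, overlapped Mir149, in an intron of the glypican gene Gpc1, at 2557 and 2267 CPM. It also overlapped Mir361, in an intron of Chm, at 2396 and 2414 CPM. Ranks 59 to 61, held by Mir149, Mir361 and Mir455, are therefore not ordered beyond the spread between replicates. Mir455 stood above Mir27b, at 2233 and 2285 CPM, without overlap, and above Mir298 at rank 63, at 2156 and 2244 CPM. Likeness over 2 libraries is likeness of level only.

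**Figure D2:**
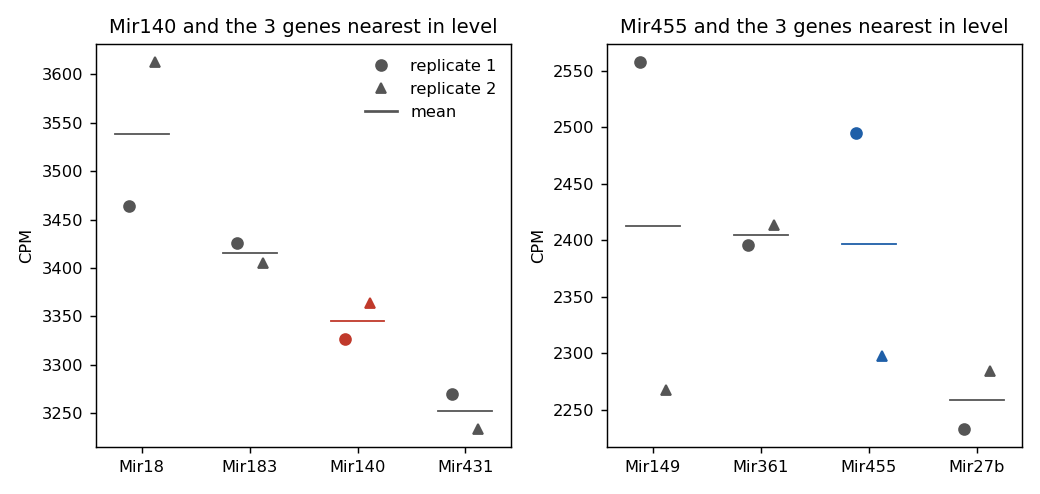
CPM of Mir140 (red, left) and Mir455 (blue, right) with the 3 genes nearest to each in level. Circles are replicate 1, triangles replicate 2 and lines the mean, and the axes do not start at 0. Mir140 does not overlap its neighbours here, whereas the range of Mir455 covers that of Mir361 and overlaps that of Mir149.

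Between the libraries, Mir140 moved little and Mir455 somewhat more. The CPM ratio of replicate 2 over replicate 1 was 1.01-fold for Mir140 (log2 0.016, 95% exact binomial interval -0.012 to 0.045). With TMM scaling the log2 ratio of Mir140 was 0.042 (0.013 to 0.071) and with DESeq2 size factors 0.032 (0.0036 to 0.061), both of which leave out no change. For Mir455 it was 0.921-fold (log2 -0.12, interval -0.15 to -0.085), which leaves out no change. Such an interval was no rarity, since 44.8% of the detected genes left out no change, 25.2% with replicate 2 lower. Among the 61 genes with at least as many counts as Mir455 the share was 88.5%. The median detected gene differed by 1.10-fold and the median of those 61 genes by 1.06-fold. The absolute log2 ratio of Mir140 exceeded that of 6.44% of detected genes, and that of Mir455 exceeded 45.9%. Both ratios were thus smaller in size than that of the median detected gene, and that of Mir455 was larger than the median of the 61 genes.

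**Figure D3:**
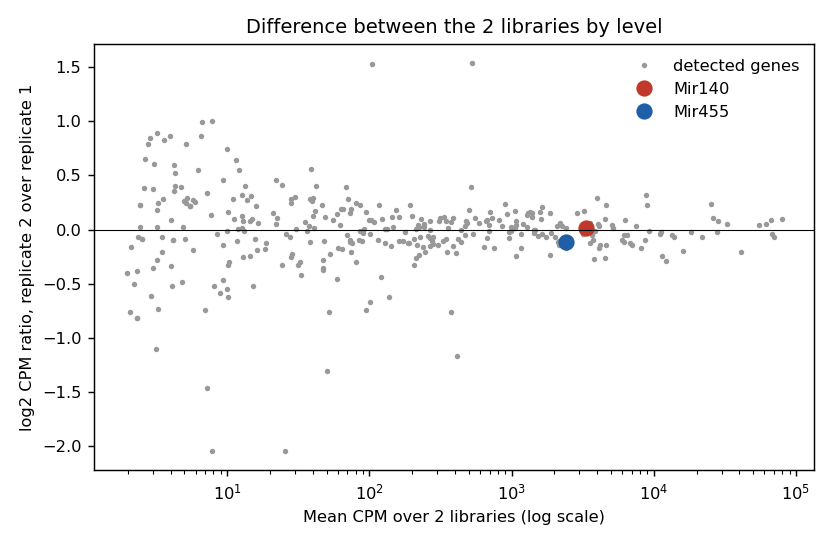
The log2 CPM ratio of replicate 2 over replicate 1 against mean CPM (log scale) for the 357 detected genes. Mir140 (red, 0.016) lies close to the line of no change and Mir455 (blue, -0.12) slightly below it, both within the cloud of genes of like level.

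Other microRNAs linked to cartilage or to SOX9 ranged from far above to far below the level of Mir140 and Mir455. The list held 22 genes, chosen for published links with earlier results of these libraries known, and 18 of them (81.8%) were detected, against 18.1% of all genes. The median of the 18 was 984 CPM with Mir140 and Mir455 among them. Without the pair 16 of 20 were detected and their median was 573 CPM, beside 123 CPM for all detected genes. The list was no random draw from the genes, so neither comparison tests for an excess of cartilage-linked genes. The detected members spanned 5.10 to 55222 CPM. Only 4 of the 22 genes stood above Mir140 (Mir335, Mir23b, Mir214 and Mir18), and Mir455 came directly after Mir140.

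The genes above Mir140 and Mir455 in the list are known from many tissues besides cartilage. Mir335, from an intron of the imprinted gene Mest, averaged 55222 ± 1165 CPM, and Mir23b averaged 27594 ± 266 CPM. Mir214, a mesenchymal microRNA whose host transcript is needed for normal skeletal growth in mice, averaged 5157 ± 40.3 CPM (SD, n = 2 for each gene of the list). Mir18 was described above. At about the level of Mir455, with 2397 CPM, stood Mir27b, which targets the collagenase MMP13 in human chondrocytes, at 2259 ± 36.2 CPM, and Mir22 at 2169 ± 148 CPM. Mir22 had 2274 CPM in replicate 1 and 2064 CPM in replicate 2, below all values of Mir455.

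Other genes tied to SOX9 stood well below the pair. Mir145a, which represses Sox9, averaged 1062 ± 90.3 CPM. Mir675, made from the H19 transcript and raised by SOX9 in human chondrocytes, had 73.8 CPM in replicate 1 and 87.7 CPM in replicate 2. Mir495 and Mir1247, both of which target SOX9 in human cells, averaged 81.0 ± 11.9 and 15.2 ± 3.85 CPM. Mir140 exceeded each of these genes in both libraries, and so did Mir455.

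The inflammation-linked Mir146 averaged 239 ± 19.2 CPM. The collagen-targeting Mir29a and Mir29c averaged 121 ± 25.8 and 47.6 ± 2.39 CPM, and Mir199b averaged 906 ± 105 CPM. Mir199a-2 and Mir199a-1 averaged 73.6 ± 4.24 and 5.10 ± 1.94 CPM. The undetected members were Mir365-1, Mir365-2, Mir29b-1 and Mir29b-2, with between 2 and 12 counts a library, and miR-365 is known from chicken chondrocytes as a regulator of Hdac4. All 4 have a stretch of 20 nt or more in common with another precursor, as do Mir23b, Mir27b, Mir146, Mir29c and the Mir199 genes, so their levels and their place in the list may be too low. Beside Mir140 and Mir455, 9 list members share no such stretch, of which 9 were detected and 3 stood above the pair.

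**Figure D4:**
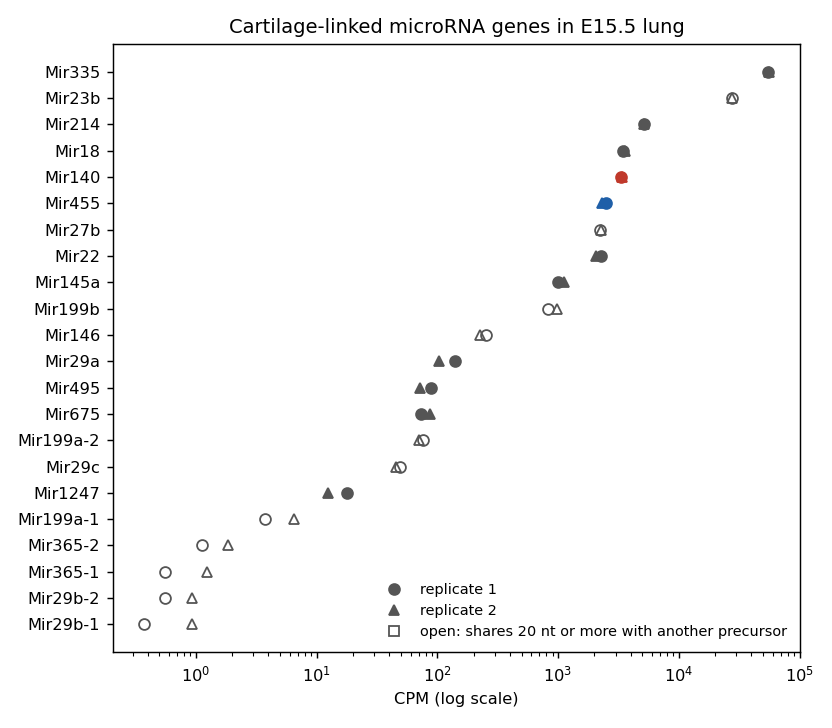
CPM (log scale) of the 22 cartilage-linked microRNA genes in replicate 1 (circles) and replicate 2 (triangles), ordered by mean. Open symbols mark genes with a stretch of 20 nt or more in common with another precursor, and Mir140 (red) and Mir455 (blue) stand next to each other in the upper part with filled symbols.

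The listed microRNAs of lung compartments were all detected. Epithelium, endothelium and smooth muscle also occur in other organs, so this does not test whether the tissue was lung. The 5 epithelial genes of the miR-200 family summed to 31937 and 31476 CPM in replicates 1 and 2. Mir126a of endothelium stood at 68906 and 67001 CPM, and the 6 genes of smooth muscle and mesenchyme summed to 83665 and 89328 CPM. Most of that sum was Mir143, at 76627 and 81960 CPM. Messages that define chondrocytes, such as Col2a1 and Acan, are not in a microRNA table. The cells that made Mir140 and Mir455 in these lungs were not identified.

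Summed markers of striated muscle, liver, neural and erythroid cells differed between the libraries more than Mir140 and Mir455 did. Mir140 (3327 and 3364 CPM) and Mir455 (2495 and 2298 CPM) were each higher, in both libraries, than any of these sums. The lists hold no markers of cartilage or trachea, and levels of different genes do not give shares of tissue. The 8 striated muscle genes summed to 929 CPM in replicate 1 and 1239 CPM in replicate 2, with 4 detected and Mir1a-1, Mir133a-1 and Mir133a-2 at 0. That sum nets opposite differences. Mir208a, from the heart myosin gene Myh6, had 573 CPM in replicate 1 and 255 CPM in replicate 2. Mir208b had 269 and 780 CPM and Mir206, of skeletal muscle, 54.2 and 156 CPM, both higher in replicate 2. The 2 liver genes summed to 526 and 340 CPM, with Mir122 at 470 and 278 CPM and Mir192 at 56.2 and 62.1 CPM. The 4 neural genes summed to 326 and 189 CPM, with Mir124a-1 at 0, and the 2 erythroid genes to 684 and 833 CPM. Of the erythroid genes, Mir451a had 445 and 585 CPM and Mir144 had 238 and 248 CPM, so Mir144 differed less than Mir455. Genes with copies, such as those at 0, can lose their reads to the class that maps to several places. The ratio of replicate 2 over replicate 1 was 1.01 for Mir140 and 0.921 for Mir455, beside 1.33 for the muscle sum (0.445 for Mir208a, 2.90 for Mir208b and 2.89 for Mir206), 0.646 for liver, 0.580 for neural and 1.22 for erythroid. Mir455 was lower in replicate 2, as were the liver and neural sums. The epithelial sum (ratio 0.986) and Mir126a of endothelium (0.972) were also lower in replicate 2, by less than Mir455. The part of any of these tissues in the difference of Mir455 was not tested.

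**Figure D5:**
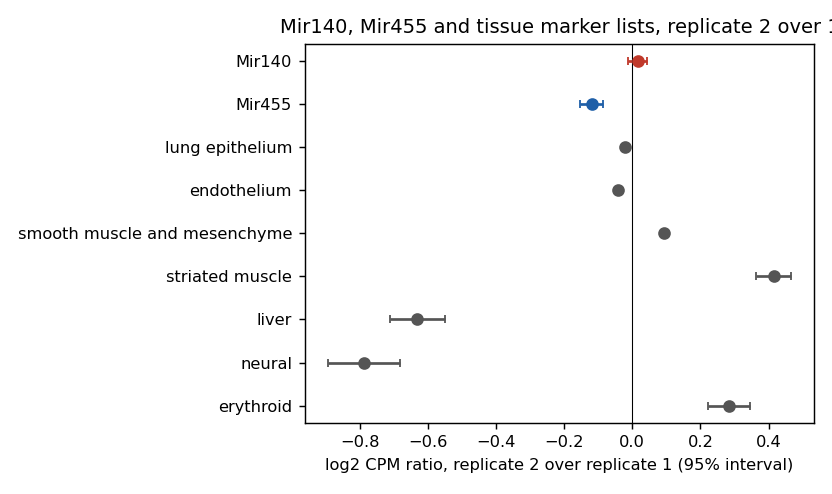
The log2 CPM ratio of replicate 2 over replicate 1 with its 95% exact binomial interval for Mir140 and Mir455 and for the summed counts of 7 marker lists. Mir140 lies at 0.016. Mir455, at -0.12, is farther from 0 than the 3 lists of lung compartments, and the muscle, liver, neural and erythroid lists lie farther out still.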

How the data were processed

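The authors deposited raw counts of reads for each microRNA gene, made on mm10 with annotation release M4, per the file headers of the readme. No aligner or counter is named there, and neither is given in the sources used here. The 3 count columns were taken, from their totals, to hold both strands, the annotated strand and its opposite, and annotated-strand counts were used. The 4 summary lines, with reads mapped to several places (31.4% and 30.6% of the reads of replicates 1 and 2), stayed out of library sizes. Of 1973 identifiers, 1894 matched GENCODE M21 on GRCm38 without version suffix.

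CPM, ranks, exact binomial 95% intervals, an exact permutation test and RNAfold 2.7.2 were computed with Python 3.11.15, scipy 1.17.1 and pandas 2.3.3. Alternative scalings came from edgeR 4.0.16 and DESeq2 1.42.0. Intervals were tested on simulated Poisson counts with known ratios. Such counts hold counting error only, so the test does not cover other differences between the pools. An intronic gene lies in a protein-coding gene on its strand and touches no exon of that gene's protein-coding transcripts.

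The genes named were Mir140 and Mir455, the 3 genes nearest in level to each, the cartilage-linked list, genes sharing a seed and microRNA genes within 50000 bp. Mir181d and Mir298, next but 1 in rank, were added after their values were seen. The members and lists were chosen with earlier results of these data known. Nothing in the labels says that the pools differ other than in their embryos, and each was sequenced once, so the spread between them may be partly technical.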

Additional observations from a re-analysis of the deposited data

How the results depend on the processing

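Of 46 recomputed values, 33 moved by less than the spread between replicates (for the ratio of the libraries, its interval stayed on the same side of no change; for the list, the count stayed within 1.5 times) and 10 moved by more. For the other 3, the ratio of replicate 2 over 1 for Mir140, the interval came to leave out no change. No value reversed. Part of the 33 was fixed in advance, so that number overstates how stable the results are. Leaving out 1 of 2 replicates always moves a mean by less than the SD. Opposite-strand counts of 0 fix the ratio of the genes. A minimum of 100 counts, or none, cannot change ranks set by genes with far more counts. At 1 count a library the list cannot exceed 22 genes, within 1.5 times 18. Leaving Mir143 out of the total rescales each library, so it could hardly change ranks. Part of the 10 was fixed as well. Leaving Mir143 out of the total, or taking all reads as the total, shifts the level of every gene. Mir455 had rank 60 in each library alone, so any other rank counted as moved by more than the spread, and so did the step from 61 to 60. With reads counted without regard to strand, Mir140 stood at 3249 CPM and rank 57 and Mir455 at rank 65; neither gene gained a read, since both had 0 on the opposite strand, while other genes and the total did. With Mir143 left out of the total the levels were 3634 CPM for Mir140 and 2603 CPM for Mir455. With all reads of the library as the total, chosen after seeing the data, they were 1587 and 1136 per 1000000 reads, and the log2 ratio of replicate 2 over 1 for Mir140 was 0.047, beside 0.042 with TMM and 0.032 with DESeq2 scaling. With either replicate left out, Mir140 ranged from 3327 to 3364 CPM and rank 54 to 55, Mir455 from 2298 to 2495 CPM at rank 60, and the log2 ratio of Mir140 over Mir455 from 0.42 to 0.55. TMM and DESeq2 scaling moved no mean level or rank beyond the spread. No paired analysis was possible because there is 1 group and none to pair it with by replicate number; the ratio of the genes is formed within each library. The counts, 13360 or more a library for each gene, leave counting error small, and the 2 replicates limit every statement on spread.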
